A study of Mus musculus with 4 samples.

Results

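Plagl1, Plag1 and Plagl2 are the PLAG family of zinc finger transcription factor genes, and they are described here in a glioma model. Every probe set that the array annotation gives to 1 of these genes alone was taken, whatever its level, which yields 9 of the 45037 non-control probe sets and 3 of 18193 annotated genes. Of the 9, 3 measure Plagl1, 2 measure Plag1 and 4 measure Plagl2. The study compares NSCL61-sox11, a derivative made to express Sox11, with its parent NSCL61 on Affymetrix mouse arrays, 2 arrays per line and 4 in all. Both lines come from p53-/- C57BL/6 mice, from telencephalon cells of embryonic day 14.5, and the labels call both neural stem cells that resemble glioma-initiating cells. The growth protocol gives the same serum-free sphere culture with PDGF, bFGF, insulin and forskolin for all arrays. Published work on NSCL61 describes an activated HRas in these cells, which the labels used here do not state. The submitters' design text says that the derivative lost the ability to form tumours in vivo and asks which genes differ between the lines. NSCL61-sox11 is represented by 1 line, and the sources used here name no vector or promoter for its Sox11. Whether the paired arrays of a line had different cultures behind them is not stated, so p-values cover only the spread between these arrays, and that spread may be technical.

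PLAG proteins bind GC-rich DNA through a cluster of C2H2 zinc fingers and activate transcription. Plagl1, also called Zac1 or Lot1, is an imprinted gene expressed from the paternal allele. Its product can induce cell cycle arrest and apoptosis, it is expressed in progenitor zones of the developing mouse brain, and it acts in a network of imprinted growth genes. Plag1 is a growth-promoting relative that translocations activate in human salivary gland tumours, and human PLAGL2 has been described as a glioma oncogene that restrains neural differentiation.

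The promoter window of Plagl1 is shown because this gene carries the change described below. It covers 250 bases before to 50 bases after the annotated start, at chr10:13090582-13090881 on the plus strand of GRCm38.p6 in RefSeq, and capitals mark matches to the PLAG binding consensus.

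Plagl1: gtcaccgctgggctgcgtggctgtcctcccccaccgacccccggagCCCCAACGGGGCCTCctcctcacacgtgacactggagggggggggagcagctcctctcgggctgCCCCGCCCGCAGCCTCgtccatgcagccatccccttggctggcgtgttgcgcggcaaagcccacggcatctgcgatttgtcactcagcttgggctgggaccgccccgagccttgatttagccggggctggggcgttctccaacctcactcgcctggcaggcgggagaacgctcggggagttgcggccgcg

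The consensus searched was GAGGC or GGGGC, then 6 to 8 bases of any kind, then GGG, on both strands. The window holds 4 overlapping matches in 2 stretches, at positions -204 to -190 and -140 to -125 relative to the start, all on the minus strand. At least 1 match is found in 22.7% of the 32851 promoter windows of this length. The Plagl1 window is 70.7% G or C, against a median of 52.7%, and 58.0% of the 2162 windows within 2.5 percentage points of its GC share hold a match. The SOX-type motif AACAAAG was searched on both strands, and the variants AACAATG, then also TACAAAG, and finally also TACAATG were searched the same way. None had a match in this window, and 14.3% of all windows hold at least 1 of them. The window of the imprinted non-coding gene Hymai starts 13 bases downstream on the same strand and shares 287 bases with that of Plagl1. No window was at hand for Plag1 or Plagl2.

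The deposited log2 values had nearly equal medians on the arrays, 5.77 on both NSCL61-sox11 arrays and 5.75 and 5.73 on the NSCL61 arrays. The SD of the difference between 2 arrays over the non-control probe sets was 0.22 within NSCL61-sox11 and 0.19 within NSCL61, and 0.40 to 0.43 between the lines. With 2 arrays in each line, an exact two-sided permutation test cannot give a p below 0.333. Calls therefore rest on limma, whose variance estimates borrow from the whole table, at an adjusted p under 0.05 over all 45037 probe sets. Under that rule 10.1% of probe sets were called, 5.44% upwards and 4.65% downwards. The arrays of the 2 lines did not overlap for 52.1% of probe sets, so a lack of overlap alone says little.

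Sox11, the gene the derivative is labelled for, was higher in NSCL61-sox11 on all 6 of its probe sets, and 5 of them were called. On the brightest, 1431225_at, it had 7.74 and 7.97 on the NSCL61-sox11 arrays, against 5.09 and 4.82 on the NSCL61 arrays. That is a 7.45-fold rise, or 2.90 in log2 units with an SE of 0.14 (limma adjusted p = 4.63e-05). The smallest change among its probe sets was 0.38 (limma adjusted p = 0.0722). The label of the derivative thus matched its Sox11 signal. With poly-A control scaling 2 Sox11 probe sets were called, and 3 without NSCL61 array 1 or array 2.

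Among the 9 PLAG family probe sets, 2 rose in NSCL61-sox11, both of them Plagl1's, 7 did not pass and none was lower by the test. Plag1 and Plagl2, by contrast, had no called probe set. At 2 of 9, the count is set against the 5.44% of all probe sets called upwards. That Plagl1 is one of the large rises of these data was known when the family was chosen, so its count is not independent support. With the poly-A control scaling, without NSCL61 array 1 and without NSCL61 array 2, 1 of the 9 probe sets was called each time.

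**Figure D1:**
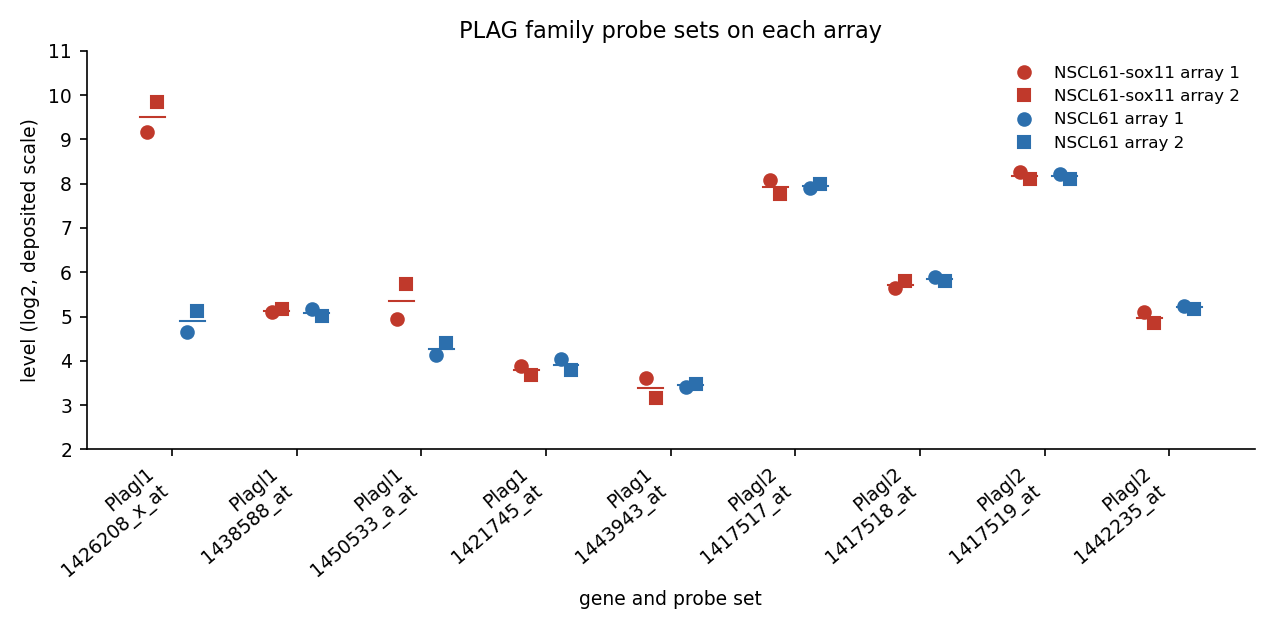
Level of each PLAG family probe set on each array, in log2 units of the deposited scale, with NSCL61-sox11 in red and NSCL61 in blue and a line at each mean. Plagl1 probe set 1426208_x_at separates the lines by over 4 units, while the points of Plag1 and Plagl2 lie close together.

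Plagl1 was highest on probe set 1426208_x_at, which had 9.17 and 9.85 on the NSCL61-sox11 arrays, against 4.66 and 5.12 on the NSCL61 arrays. The lower NSCL61-sox11 array lay 4.05 log2 units above the higher NSCL61 array, while the 2 arrays differed by 0.68 within NSCL61-sox11 and by 0.46 within NSCL61. The means were 9.51 ± 0.48 in NSCL61-sox11 and 4.89 ± 0.33 in NSCL61 (SD, n = 2 each). Both NSCL61 values lay below 5.15, the lowest mean of the brightest 60% of probe sets, so the fold starts from a low signal. The rise was 24.6-fold, or 4.62 in log2 units (SE 0.24, 95% interval 4.06 to 5.18, limma adjusted p = 6.09e-05). Its direction follows the array labels, which the Sox11 signal matched; the study's own publication, which was not at hand, is understood to give the opposite direction for Plagl1. It was the second largest rise and the fifth largest change in either direction among all 45037 probe sets. The suffix _x_at marks a probe set with probes that also match other transcripts, so part of its signal may not be Plagl1, and this was not tested. In bulk cultures, more cells with Plagl1 RNA and more such RNA per cell cannot be told apart.

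The second Plagl1 probe set, 1450533_a_at, whose suffix marks probes shared by transcript variants of 1 gene, rose less. It had 4.95 and 5.74 on the NSCL61-sox11 arrays, against 4.13 and 4.39 on the NSCL61 arrays. The lines did not overlap, and the gap between them of 0.56 was smaller than the 0.79 between the NSCL61-sox11 arrays. The rise was 2.12-fold, a log2 fold change of 1.09 (SE 0.24, 95% interval 0.52 to 1.65, limma adjusted p = 0.0313). Its call was lost without NSCL61 array 1 (limma adjusted p = 0.259), without NSCL61 array 2 (limma adjusted p = 0.168) and with poly-A control scaling (limma adjusted p = 0.142).

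The third Plagl1 probe set, 1438588_at, did not separate the lines. It had 5.10 and 5.18 on the NSCL61-sox11 arrays, against 5.18 and 5.00 on the NSCL61 arrays, and the lines overlapped. Its log2 fold change was 0.04 (SE 0.12, 95% interval -0.23 to 0.32, limma adjusted p = 0.88), with a sign that turned under both control scalings and without NSCL61 array 2. The intervals of the 3 Plagl1 probe sets do not overlap each other, so they differ in the size of the change that they report, although all are annotated to the same gene. Neither 1438588_at nor 1450533_a_at is among the brightest 60% of probe sets, whose lowest mean is 5.15. At such a low signal, the lack of change on 1438588_at says little. Array 2 of NSCL61-sox11 was above array 1 on all 3.

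Plag1, the growth-promoting relative, had low values on both of its probe sets and no called change. Probe set 1421745_at had 3.89 and 3.68 in NSCL61-sox11, against 4.04 and 3.79 in NSCL61. Its log2 fold change was -0.13 (SE 0.13, 95% interval -0.44 to 0.18, limma adjusted p = 0.643). Probe set 1443943_at had 3.62 and 3.15 in NSCL61-sox11, against 3.42 and 3.48 in NSCL61, and its NSCL61-sox11 arrays lay on both sides of the NSCL61 arrays. Its log2 fold change was -0.06 (SE 0.16, 95% interval -0.43 to 0.31, limma adjusted p = 0.872). On the deposited scale the intervals of Plag1 span ratios of 0.736 to 1.24, and neither probe set is among the brightest 60%, whose lowest mean is 5.15.

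Plagl2, the relative linked to human glioma, gave its strongest signals on probe sets 1417519_at and 1417517_at. On 1417519_at it had 8.27 and 8.10 in NSCL61-sox11, against 8.21 and 8.11 in NSCL61, and the values of the lines overlapped. The log2 fold change there was 0.02 (SE 0.10, 95% interval -0.22 to 0.27, limma adjusted p = 0.938). On 1417517_at it had 8.08 and 7.76 in NSCL61-sox11, against 7.90 and 8.0 in NSCL61, a log2 fold change of -0.03 (SE 0.13, 95% interval -0.33 to 0.27, limma adjusted p = 0.934). The other probe sets of Plagl2 were dimmer, and on both every NSCL61-sox11 array lay below every NSCL61 array without a call. On 1417518_at the values were 5.64 and 5.80 in NSCL61-sox11, against 5.90 and 5.81 in NSCL61, with a log2 fold change of -0.13 (limma adjusted p = 0.595). On 1442235_at they were 5.09 and 4.86 in NSCL61-sox11, against 5.24 and 5.17 in NSCL61, with a log2 fold change of -0.23 (95% interval -0.52 to 0.06, limma adjusted p = 0.334).

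**Figure D2:**
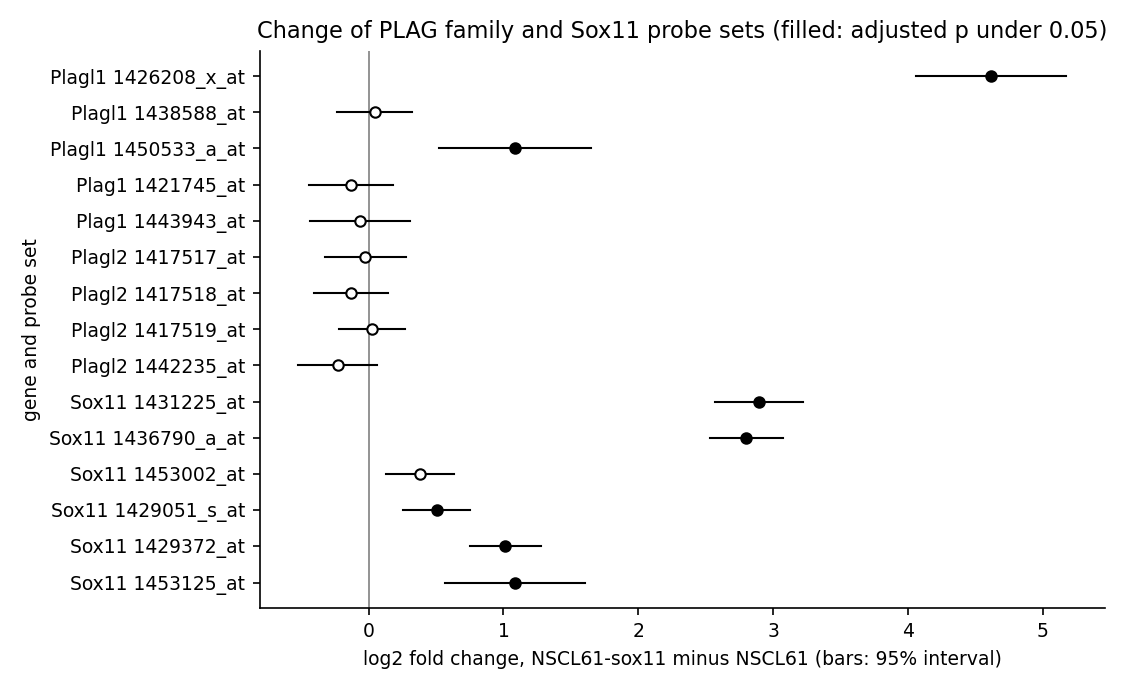
Log2 fold change, NSCL61-sox11 minus NSCL61, of each PLAG family and Sox11 probe set, with 95% intervals from limma and filled points for an adjusted p under 0.05. Plagl1 1426208_x_at at 4.62 lies beyond every Sox11 probe set, whose largest change is 2.90, and all 6 Plag1 and Plagl2 intervals include 0.

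The profile of Plagl1 1426208_x_at over the 4 arrays was compared with that of every other named probe set, each with its own mean taken off. The nearest, by Euclidean distance over the 4 arrays, were Epha4, an ephrin receptor gene, at 0.66, and Vgll3, a cofactor of TEAD factors, at 0.69. Next came the transcriptional coactivator gene Eya4 at 0.90, the actin adaptor gene Sorbs2 at 0.95, the natriuretic peptide receptor gene Npr3 at 0.99 and the RNA-binding protein gene Bicc1 at 1.09. Epha4 had 7.82 and 8.03 on the NSCL61-sox11 arrays, against 3.46 and 3.12 on the NSCL61 arrays. With 2 arrays per line, this ranking mostly collects the other very large rises, and it is a description with no test.

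**Figure D3:**
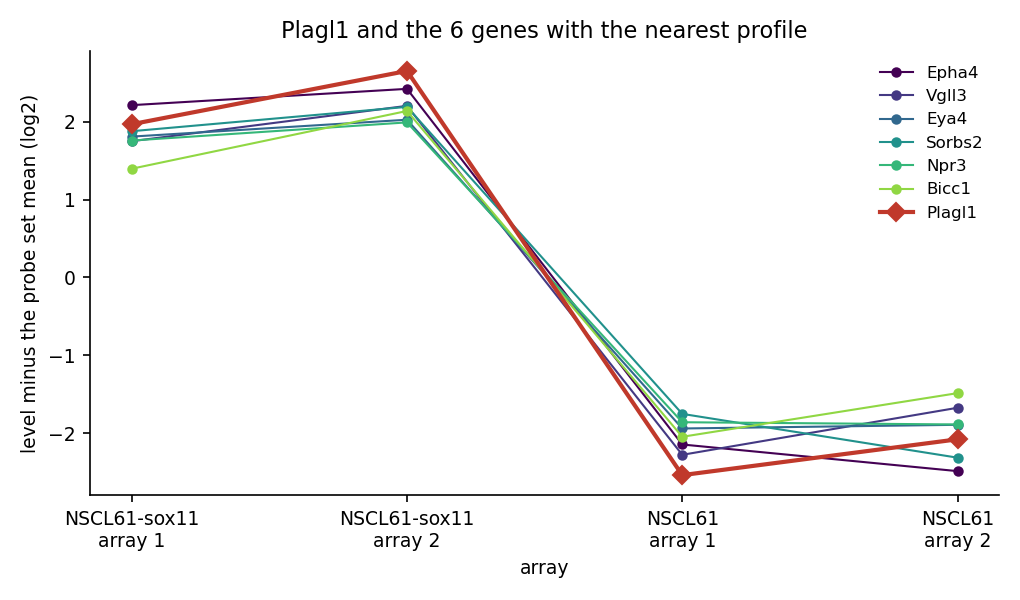
Level on each array minus the probe set's own mean over the 4 arrays, in log2 units, for Plagl1 1426208_x_at in red and the 6 named genes with the smallest distance to it. All 7 lines are high on both NSCL61-sox11 arrays and low on both NSCL61 arrays.

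The imprinted gene network described around Plagl1 in mice holds growth and metabolic genes that are often expressed together, and 6 of its 14 measured members rose in NSCL61-sox11, none fell and 8 did not pass. Over all 18193 genes, each by its brightest probe set, 13.0% were called, 6.94% upwards and 6.01% downwards, and the arrays of the lines did not overlap for 55.6%. They did not overlap for 8 of the 14 network genes. The median log2 fold change of the network was 0.21, against -0.02 over all genes. This list and the gene lists below were chosen with earlier results of these data known, so their counts are not independent support. Without NSCL61 array 1, 3 members were called.

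Dlk1, the gene of a transmembrane protein related to Notch ligands, had 11.72 and 11.65 in NSCL61-sox11, against 9.12 on both NSCL61 arrays, a 5.91-fold rise (log2 fold change 2.56, SE 0.07, limma adjusted p = 1.44e-05). Its second probe set was not called, and the mean of both gave 1.49. The amino acid transporter gene Slc38a4 had 9.49 and 9.36 in NSCL61-sox11, against 7.18 and 7.23 in NSCL61, a 4.64-fold rise (limma adjusted p = 3.77e-05). Grb10, an adaptor that restrains insulin and growth factor signalling, had 8.51 and 8.99 in NSCL61-sox11, against 6.77 and 6.72 in NSCL61, and rose 4.02-fold, with 2 of its 3 probe sets called. The mean of all 3 Grb10 probe sets gave a log2 fold change of 1.15, against 2.01 on the brightest. On their brightest probe sets, Dlk1, Slc38a4 and Grb10 kept the lines far apart on every array.

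Igf2r, the receptor that clears insulin-like growth factor, had 8.66 and 9.43 in NSCL61-sox11, against 6.88 and 7.62 in NSCL61, a 3.48-fold rise (limma adjusted p = 0.00959) whose call was lost without NSCL61 array 1 (limma adjusted p = 0.116). Mest, an imprinted hydrolase gene named after its values were seen, had 7.77 and 8.78 in NSCL61-sox11, against 6.40 and 6.65 in NSCL61, and its call was lost without either NSCL61 array. The growth factor gene Igf2, a known target of human PLAG1, had 6.90 and 7.06 in NSCL61-sox11, against 6.51 and 6.33 in NSCL61. Its rise was 1.48-fold (limma adjusted p = 0.0265), and the call was lost under both control scalings, without NSCL61-sox11 array 2, without either NSCL61 array and with the mean of its 2 probe sets (limma adjusted p = 0.249). Members that did not pass included Peg3 at -0.02, Gnas at -0.01, the cell cycle inhibitor gene Cdkn1c at -0.01 and Meg3 at -0.25 on the log2 fold change scale. Cdkn1c read 3.79 to 3.89 on all arrays, near the low end of the scale, where a lack of change says little. Peg3, at 10.77 to 11.41, and Gnas, at 13.11 to 13.19, were bright. On these bright members, the rises seen in Dlk1, Slc38a4 and Grb10 were not shared.

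Of the 6 risen network genes, 3 hold a PLAG match in at least 1 promoter window. So do 2 of the 5 members that did not pass and have a window, and 24.7% of all 27025 genes. These counts do not take GC share into account. The matched windows are 80% G or C for Grb10, 70.7% for Igf2r and 62.7% for Mest, against a median of 52.7%. Of all windows within 2.5 percentage points of the Plagl1 GC share, 58.0% hold a match. The motif GGGGCCCC, searched for Plagl1 in particular, had no match in the Plagl1 window or in any window of the 6 risen genes. Among the members that did not pass, only Peg3 held it, beside 1.08% of all windows. PLAG consensus stretches of the risen genes are shown beside those of Plagl1 because the network is where Plagl1 is known to act. They are read 5′ to 3′ on the gene's strand with up to 15 bases on each side, and capitals mark the matches. Mest is at chr6:30737889-30737932 and chr6:30737933-30737978, Grb10 at chr11:12037371-12037414 on the minus strand, and Igf2r at chr17:12769710-12769758 on the minus strand, all in GRCm38.p6.
Mest, upstream stretch: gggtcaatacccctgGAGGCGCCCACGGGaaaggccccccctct
Mest, downstream stretch: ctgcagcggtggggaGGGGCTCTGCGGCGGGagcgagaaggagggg
Grb10: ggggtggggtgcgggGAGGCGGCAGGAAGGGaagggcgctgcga
Igf2r: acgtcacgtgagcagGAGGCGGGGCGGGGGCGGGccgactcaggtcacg

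Genes of the extracellular matrix, a class that mouse work has linked to Plagl1 binding, were mostly higher in NSCL61-sox11. Of 19 measured, 13 rose, none fell and 6 did not pass, so 68.4% were called beside 13.0% of all genes. The median log2 fold change was 1.10, against -0.02 over all genes. As the list was chosen with earlier results of these data known, this excess is not independent support. Without NSCL61 array 1, 7 were called, and without NSCL61 array 2, 8 were called. The cross-linking enzyme gene Lox had 9.98 and 9.95 in NSCL61-sox11, against 7.45 and 7.48 in NSCL61, a 5.64-fold rise (limma adjusted p = 2.39e-05). Timp3, a protease inhibitor gene, had 10.89 and 10.63 in NSCL61-sox11, against 8.45 and 8.36 in NSCL61, a 5.12-fold rise. Both genes were steady within each line.

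Col1a1, a fibrillar collagen gene, had 8.51 and 9.61 in NSCL61-sox11, against 5.84 and 6.31 in NSCL61. Postn, which encodes periostin, had 8.27 and 10.59 in NSCL61-sox11, against 5.69 and 6.50 in NSCL61, so its 10.1-fold rise rests on arrays that differ widely. The change was 3.33 in log2 units, against 4.49 when NSCL61-sox11 array 1 was left out and 2.17 when array 2 was. The Postn call was lost without NSCL61 array 1 (limma adjusted p = 0.210) or array 2 (limma adjusted p = 0.131). As with Plagl1, NSCL61-sox11 array 2 was the higher one for Col1a1, Postn, Igf2r and Mest, but it was the lower one for Lox, Timp3, Dlk1 and Slc38a4.

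Genes reported elsewhere as targets of the family were read against the same share of 13.0% over all genes. Of 9 reported Plagl1 targets, 2 rose and 7 did not pass, so 22.2% were called, with a median log2 fold change of 0.35. The count ranged from 1 to 4 without single arrays and was 1 with poly-A control scaling. The growth factor gene Tgfb2 had 8.02 and 8.75 in NSCL61-sox11, against 5.96 and 6.52 in NSCL61, a 4.40-fold rise (limma adjusted p = 0.00272). Its call was lost without NSCL61 array 1 (limma adjusted p = 0.0560), and all 4 of its probe sets were called upwards. The cell cycle inhibitor gene Cdkn1a rose 1.72-fold (limma adjusted p = 0.0301), and its call was lost with poly-A control scaling, without NSCL61-sox11 array 2 or NSCL61 array 2, and with the mean of its probe sets (limma adjusted p = 0.0624). The neural target genes Socs3, Tcf4 and Adcyap1r1 had log2 fold changes of 0.78, 0.31 and -0.05 and did not pass.

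Of 11 measured genes reported as targets of human or mouse Plag1 or Plagl2, 3 rose, 1 fell and 7 did not pass, so 36.4% were called beside 13.0% of all genes, with a median log2 fold change of 0.07. None of them was called with poly-A control scaling, and 1 was without NSCL61 array 1 or array 2. The Wnt receptor gene Fzd2 had 10.04 and 10.11 in NSCL61-sox11, against 8.79 and 8.96 in NSCL61, a 2.30-fold rise on the deposited scale (limma adjusted p = 0.00038) whose call was lost with poly-A control scaling. Beside Fzd2 and Igf2, the ephrin gene Efnb1 rose 1.40-fold (limma adjusted p = 0.0333), a call lost in 7 of the alternatives, among them the omission of each single array. Bnip3, a mitochondrial cell death gene, fell by 0.47 on the log2 scale (limma adjusted p = 0.0168), a call lost with poly-A control scaling and without either NSCL61 array.

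**Figure D4:**
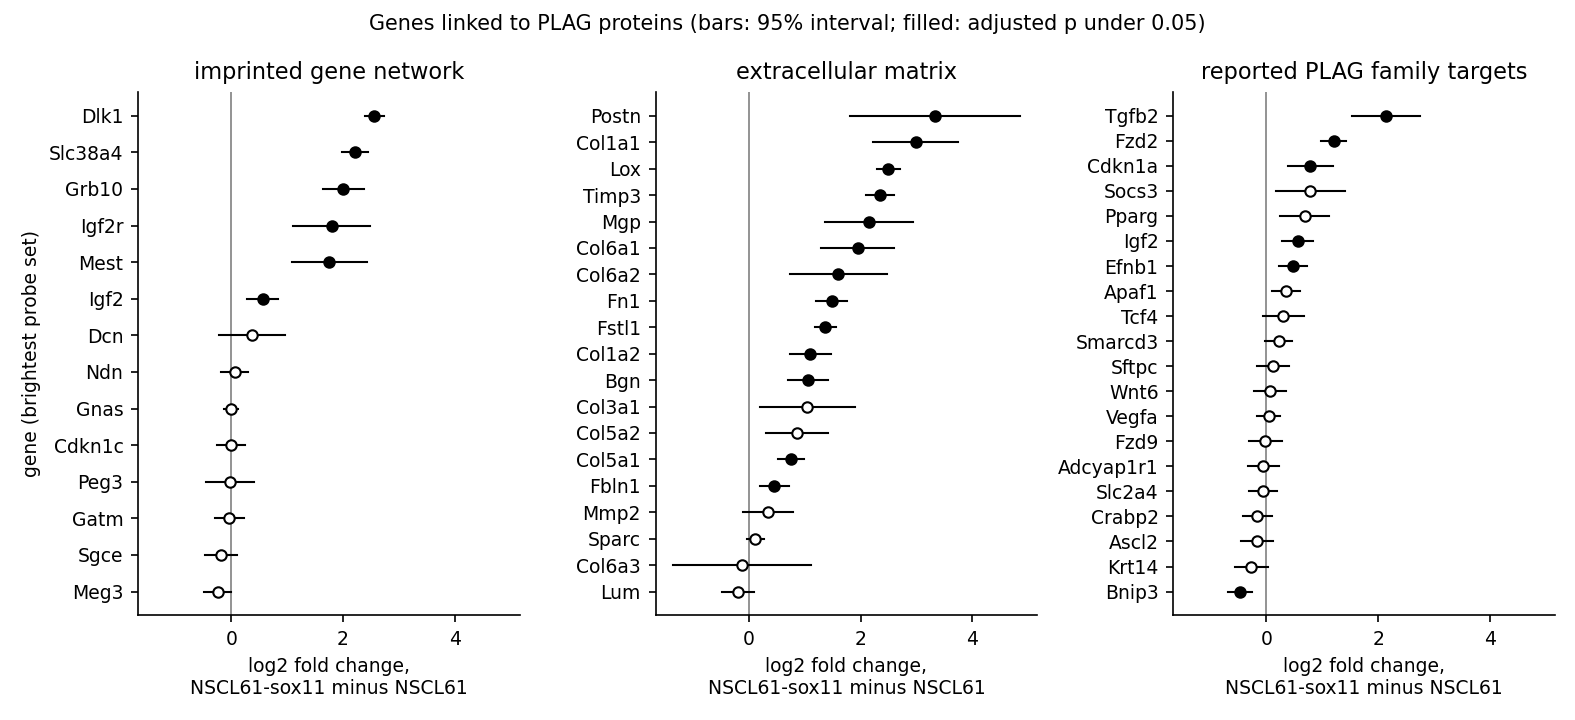
Log2 fold change, NSCL61-sox11 minus NSCL61, with 95% intervals for the measured genes of the imprinted network, the extracellular matrix list and the reported PLAG family targets; filled points have an adjusted p under 0.05. Filled points number 6 of 14 in the first panel and 13 of 19 in the second.

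Of 11 measured factors that carry, modify or work with PLAG proteins, 1 rose and 10 did not pass, a share of 9.09% that is near the 13.0% of all genes, with a median log2 fold change of 0.14. Without single arrays 0 to 3 were called. The riser was the histone deacetylase gene Hdac1, at 11.26 and 11.27 in NSCL61-sox11, against 10.92 and 10.95 in NSCL61, with a log2 fold change of 0.33 on the deposited scale (limma adjusted p = 0.0211) that became -0.07 with poly-A control scaling. Its call was also lost with hybridisation control scaling, with no intensity trend and without either NSCL61 array. The nuclear import factor gene Kpna2, a known partner of human PLAG1, had 12.90 and 12.93 in NSCL61-sox11, against 13.02 and 12.87 in NSCL61.

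Of 13 genes that set or maintain imprints, none rose on its brightest probe set, 2 fell and 11 did not pass, with a median of -0.05. Their share called, 15.4%, is close to the 13.0% of all genes. With gene means 1 of these genes rose and 1 fell, and with the replicate block 1 rose and 2 fell. None rose in the other alternatives that gave a count. For the DNA methyltransferase gene Dnmt3b, 1 of 2 probe sets was called, upwards, but not the brightest. Trim28, the corepressor that holds methylation at imprinted control regions, had 11.84 and 11.73 in NSCL61-sox11, against 12.21 and 12.33 in NSCL61, and fell by 0.49 on the log2 scale (limma adjusted p = 0.00656). The de novo DNA methyltransferase gene Dnmt3a fell by 0.52 on its brightest probe set (limma adjusted p = 0.0259), 1 of 5, and by 0.22 with the mean of all 5 (limma adjusted p = 0.215). Both calls were lost without either NSCL61 array, and that of Dnmt3a also without NSCL61-sox11 array 2.

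Markers of other cell types were read beside these groups. Of 10 markers of fibroblasts and meninges, 5 rose, none fell and 5 did not pass (50% called, beside 13.0% of all genes), with a mean level of 7.90 and 8.15 on the NSCL61-sox11 arrays, against 6.83 and 7.24 on the NSCL61 arrays. Pdgfrb and Pdgfra, which encode receptors of platelet-derived growth factor, rose 5.04-fold and 3.77-fold, and Col1a1 and Col1a2 7.93-fold and 2.14-fold, whereas Lum, Thy1 and Twist1 did not pass at -0.20, -0.12 and -0.09. The list shares Col1a1, Col1a2, Col3a1 and Lum with the matrix list and Dcn with the network. Of this list 2 genes were called without NSCL61 array 1 and 3 with poly-A control scaling. Its part in the matrix and network results was not tested. Of 6 endothelial and mural markers, 2 rose, none fell and 4 did not pass (33.3% called, beside 13.0% of all genes). The mural genes Rgs5 and Acta2 rose 3.85-fold and 3.32-fold. Pecam1, Kdr, Tek and Cdh5 did not pass at 0.05, 0.10, 0.09 and -0.59 on the log2 fold change scale. For Acta2, 1 of 3 probe sets was called, and the mean of all 3 gave a log2 fold change of 0.49. No microglia or blood marker of 7 was called by limma, where 0 reached an unadjusted p under 0.05, and the list's mean level was 4.72 and 4.61 on the NSCL61-sox11 arrays, against 4.74 and 4.64 on the NSCL61 arrays.

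The labelled cell type was checked on 10 neural stem cell markers. The intermediate filament gene Nes had 9.37 and 9.51 in NSCL61-sox11, against 9.48 and 9.31 in NSCL61, and the stem cell factor gene Sox2 had 8.68 and 8.97 in NSCL61-sox11, against 10.29 and 10.75 in NSCL61. Sox2 fell by 1.70 on the log2 scale (limma adjusted p = 0.00095), Pax6 by 0.45 and Vim by 0.21, Slc1a3 rose 2.28-fold, and 6 did not pass (40.0% called, beside 13.0% of all genes). With poly-A control scaling or without NSCL61 array 1, Sox2 alone among these 4 kept its call, and those of Pax6 and Vim were also lost without NSCL61 array 2, with no intensity trend and with the mean of probe sets, and that of Pax6 without NSCL61-sox11 array 1. Fabp7, Prom1 and Olig2 were at or below 4.39 on all arrays. Among 8 neuron markers, Tubb3 rose 2.82-fold, Syt1 rose 1.53-fold and the neurofilament gene Nefl fell by 6.78 on the log2 scale. The other 5 did not pass, from Rbfox3 at -0.08 to Snap25 at 0.27, so 37.5% were called, beside 13.0% of all genes. The Syt1 call was lost in 4 of the alternatives, among them both control scalings.

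The neighbours of each gene were read to see whether the rise of Plagl1 extended along chromosome 10. For the 6 nearest measured genes on each side of Plagl1, log2 fold changes ran from -0.17 to 0.38, with a median of 0.00, far below the 4.62 of Plagl1. The splicing factor gene Sf3b5, the next measured gene on the left, was the only one of these 12 called, at 0.38 on the deposited scale (limma adjusted p = 0.0480), and was at -0.02 with poly-A control scaling (limma adjusted p = 0.944). Its call was lost in 8 of the alternatives, among them the omission of either NSCL61 array. Zc2hc1b, the next on the right, had 5.71 and 5.64 in NSCL61-sox11, against 5.77 and 5.74 in NSCL61.

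Around Plag1, on chromosome 4, 0 of 12 neighbours were called by limma, with log2 fold changes from -0.34 to 0.42. An unadjusted p under 0.05 was reached by 4 of them, by 2 of the 12 around Plagl1 and by 5 of the 12 around Plagl2. The share of all genes under that p was not counted, so these counts are no result about the neighbours. The 4 around Plag1 ran from Dhrsx at -0.34 to the enkephalin precursor gene Penk at 0.42. Around Plagl2, on chromosome 2, Pdrg1 and Commd7 rose by 0.59 and 0.65 and 10 of 12 did not pass. Taking all 36 neighbours, 3 were called, against 13.0% of all genes, and 0 were called with poly-A control scaling, without NSCL61 array 1 or without NSCL61 array 2.

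**Figure D5:**
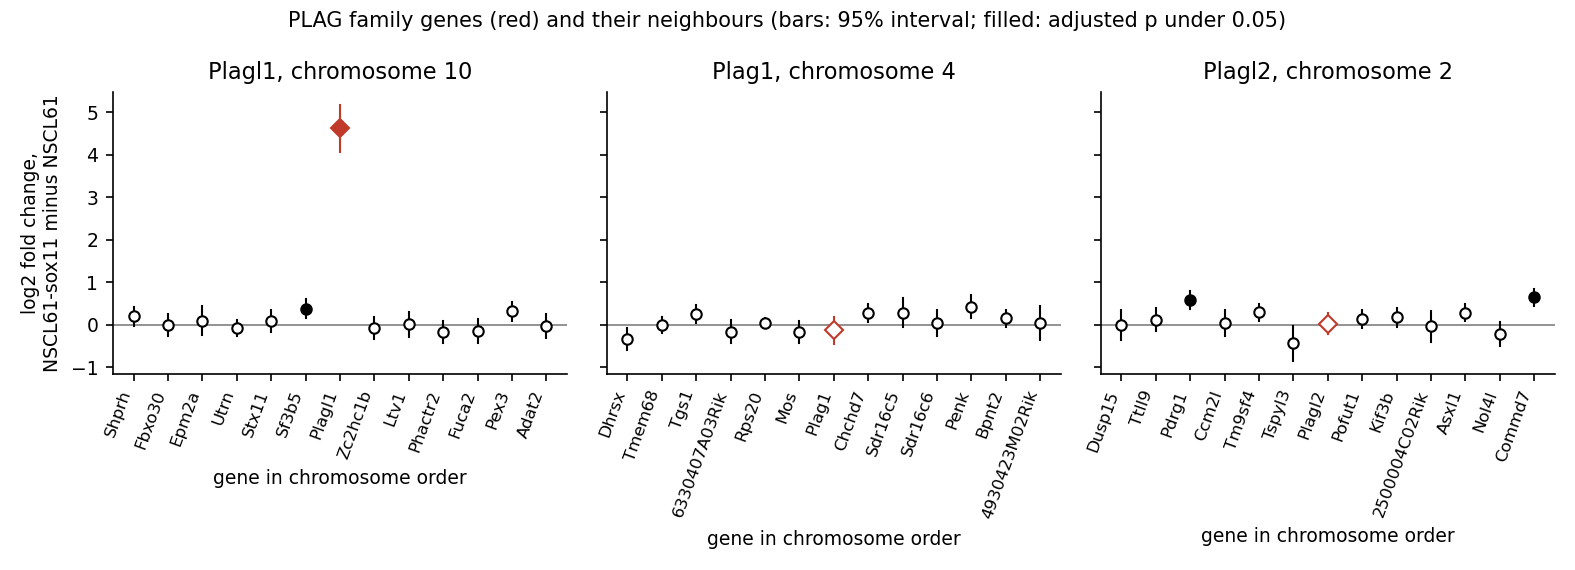
Log2 fold change, NSCL61-sox11 minus NSCL61, of Plagl1, Plag1 and Plagl2 on their brightest probe sets in red and of the 6 nearest measured genes on each side in black, in chromosome order but not to distance, with 95% intervals. Plagl1 stands at 4.62 among neighbours between -0.17 and 0.38.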

How the data were processed

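Biotin-labelled RNA was made from total RNA and read on Affymetrix M430_2 arrays, per the labels' protocols. The deposited table holds log2 values of 45101 probe sets; the log base is inferred from their range of 2.13 to 14.62, and the sources used here do not say how the authors summarised and normalized them. They were used without further scaling. Probe sets were named through the array annotation, with symbols checked against GRCm38.p6 genes (0 changed), and 932 with several symbols and 9160 with none were not named. All 45037 non-control probe sets were fitted with limma 3.58.1 in R 4.3.3 (lmFit, eBayes with intensity trend, two-sided, Benjamini-Hochberg). Residual degrees of freedom were 2, and 7.31 after moderation. Intervals are unadjusted and use the moderated SE; levels carry the SD over 2 arrays. A gene is represented by its probe set with the highest mean.

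Members and gene lists were chosen with earlier results of these data known. Named were all family probe sets, Sox11, up to 4 called members per list with the largest change (the 2 brightest where none was called), called neighbours and the 6 nearest profiles; other names were added after their values were seen. Some genes of the lists are not reported here, and counts are over the members measured. The brightest members of the microglia and blood list were Csf1r at -0.15 and Cd68 at -0.15 (log2 fold change). Alternatives were a level filter, 4 other scalings, no intensity trend, a replicate block, the omission of each array, of _x_at and _s_at probe sets, and gene means. The scripts were tested on simulated data. Promoters are RefSeq's, and figures were drawn with matplotlib 3.10.9.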

Additional observations from a re-analysis of the deposited data

How the results depend on the processing

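Plagl1 1426208_x_at kept its direction and its call in all 11 alternatives that gave it a value, with log2 fold changes of 4.22 to 4.96; the alternative without _x_at and _s_at probe sets holds no value for it. The number of family probe sets called, 2 in all, became 1 with the brightest 60% of probe sets, with poly-A control scaling and without _x_at and _s_at probe sets, and was 1 to 2 without single arrays. The first and last of these leave a called probe set out. Poly-A control scaling moves the median log2 fold change of all probe sets to -0.43, against -0.02, and hybridisation control scaling moves it to -0.24. With the replicate block 9343 probe sets, 11 neighbours, 6 partners and modifiers of PLAG proteins (against 1) and 6 reported Plagl1 targets (against 2) were called. The arrays share only a number in the labels, and the deviations of same-numbered arrays correlated at 0.28; the block changed no call of a family probe set. With poly-A control scaling 2304 probe sets (601 up, 1703 down), 25 genes of all lists, 2 Sox11 probe sets and 0 neighbours were called, against 4542 (2450 up, 2092 down), 39, 5 and 3. Calls upwards were 53.9% of all calls, against 26.1% with poly-A and 21.5% with hybridisation control scaling. Without single arrays the counts were 1143 to 4717 probe sets, 18 to 41 list genes, 3 to 4 Sox11 probe sets, 3 to 7 network genes, 7 to 14 matrix genes and 0 to 4 neighbours, with the lowest counts without NSCL61 array 1 or 2. Small changes that passed no test turned sign: Plagl1 1438588_at to -0.36 with poly-A and -0.17 with hybridisation scaling, and to -0.045 without NSCL61 array 2; and Plagl2 1417519_at to -0.0065 with median centring and to -0.38 and -0.20 with poly-A and hybridisation scaling. Without single arrays Plag1 1443943_at ran from -0.30 to 0.17, Plagl2 1417517_at from -0.19 to 0.13 and Plagl2 1417519_at from -0.062 to 0.10. Hdac1 turned to -0.072 and Sf3b5 to -0.023 with poly-A scaling. Beyond what the scalings do by construction, the causes were not tested. The array values give no count of molecules, and the level of Plag1 is near the low end of the scale.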
